A study of Mus musculus with 18 samples.

Results

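The genes described here are 8 receptors through which liver cells take up lipoproteins, modified lipids, fatty acids and other circulating ligands: Scarb1, Cd36, Msr1, Lrp1, Vldlr, Stab1, Stab2 and Cd68. They were taken by name and not by a cut on a measured value, but with earlier results of these data known. They are 8 of 35441 genes in the deposited liver RNA-seq table. All 8 had more than 100 reads summed over the mice and were therefore tested, together with 14533 genes in all. Livers came from 18 male mice on a C57BL/6N background, as 6 groups of 3. The groups were wild-type (WT) littermates, Lipa-/- mice and rAAV8-treated Lipa-/- mice, each at 12-weeks and 34-weeks. Lipa-/- mice lack exon 4 of the lysosomal acid lipase gene in the whole body through a germline Cre deletion. The times count from the vector dose of the treated mice, and the control mice were age-matched. Dosing took place several weeks after birth, so the times are not ages. Sample titles give 3 months for the 12-weeks livers and 8 months for the 34-weeks livers. Treated mice carried the same deletion and received a vector with tagged human LIPA cDNA behind the hepatocyte-specific hAAT promoter, so only hepatocytes were meant to make the enzyme. All mice were kept on a standard chow diet. Untreated Lipa-/- mice of the long follow-up mostly reached a humane endpoint early, so livers labelled 34-weeks in that group may not all have been collected at that time. All 34-weeks livers carried 1 study code and the 12-weeks livers another, except 1 Lipa-/- mouse with a code of its own, so time and study code cannot be told apart.

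In the lysosome, acid lipase splits cholesteryl esters and triglycerides that arrive with endocytosed lipoproteins, and its loss traps these lipids in hepatocytes and macrophages. Uptake receptors stand one step before this enzyme. Hepatocytes take up high-density lipoprotein cholesterol through Scarb1 and remnant particles through members of the LDL receptor family such as Lrp1, sinusoidal endothelial cells clear circulating macromolecules through the stabilins Stab1 and Stab2, and macrophages internalise modified lipoproteins through scavenger receptors such as Msr1. The comparisons asked how the mRNA of these receptors differed between Lipa-/- and WT livers, and between treated Lipa-/- livers and either of them.

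On the GRCm39 assembly and its GENCODE annotation, all 8 are protein-coding genes. Scarb1 lies at chr5:125353547-125418176 and Cd36 at chr5:17986432-18094067, both on the minus strand. Msr1 lies at chr8:40034726-40095714, Lrp1 at chr10:127374012-127457017, Stab2 at chr10:86675054-86843889, Stab1 at chr14:30860970-30890598 and Cd68 at chr11:69555037-69557067, all on the minus strand, while Vldlr lies on the plus strand at chr19:27193862-27231631. The canonical transcripts differ widely in size: that of Cd68 has 5 exons and 1198 bases, that of Lrp1 has 89 exons and 14906 bases, and those of Stab1 and Stab2 have 69 exons each, with 7999 and 10236 bases. This matters below, because log2 fold changes between some groups trended with transcript length. The cause of that trend was not tested. Exons of Stab1 overlap those of the protein-coding gene Nt5dc2 on the opposite strand over 113 bases, and Scarb1, Lrp1, Vldlr, Stab1 and Stab2 share exonic bases with opposite-strand lncRNAs. Whether the libraries kept the strand was not given in the sources used here.

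RefSeq promoter windows, from 250 bases before to 50 bases after a start site on the GRCm38.p6 assembly, were held for 6 of the 8 genes; none was held for Scarb1 or Msr1. The 3 windows below are shown because Cd68 and Stab1 were higher in Lipa-/- livers at both times and Cd36 was higher at 12-weeks. Capitals mark matches on either strand to GAGGAA, a core recognised by PU.1-type ETS factors of myeloid cells, and to AGGTCA, a nuclear receptor half-site. The Cd68 window is chr11:69666121-69666420, the Stab1 window chr14:31168592-31168891 and the Cd36 window chr5:17835847-17836146, all on the minus strand and written 5′ to 3′.
Cd68: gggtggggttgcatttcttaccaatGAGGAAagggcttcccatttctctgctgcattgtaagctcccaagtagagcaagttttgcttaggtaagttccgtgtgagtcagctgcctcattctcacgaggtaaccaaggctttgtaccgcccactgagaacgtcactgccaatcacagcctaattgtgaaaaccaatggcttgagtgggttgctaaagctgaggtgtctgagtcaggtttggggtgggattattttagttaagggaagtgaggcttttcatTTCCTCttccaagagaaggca
Stab1: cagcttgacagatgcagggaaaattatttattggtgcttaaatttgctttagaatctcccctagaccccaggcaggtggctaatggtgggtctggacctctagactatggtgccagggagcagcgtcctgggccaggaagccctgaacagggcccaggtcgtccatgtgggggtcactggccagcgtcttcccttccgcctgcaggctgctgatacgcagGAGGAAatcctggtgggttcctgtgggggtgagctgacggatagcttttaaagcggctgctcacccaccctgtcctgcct
Cd36: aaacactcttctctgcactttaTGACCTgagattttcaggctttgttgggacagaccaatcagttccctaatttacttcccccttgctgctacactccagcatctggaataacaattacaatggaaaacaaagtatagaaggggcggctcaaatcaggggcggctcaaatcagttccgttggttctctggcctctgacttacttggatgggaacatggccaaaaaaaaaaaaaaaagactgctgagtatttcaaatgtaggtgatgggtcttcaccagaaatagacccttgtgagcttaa
GAGGAA occurred 2 times in the Cd68 window and 1 time each in those of Stab1 and Vldlr, and 28.3% of 32851 RefSeq promoter windows of 300 bases held it. AGGTCA occurred 1 time in the Cd36 window and 2 times in that of Stab2, against 16.3% of all windows. CACGTG, an E-box, stood in none of the members' windows, against 7.15% of all windows. The TATA box, searched as TATAAA, was also in none of them, against 13.6% of all windows. No match to the 4 motifs stood in the Lrp1 window. The motifs searched do not overlap each other in these windows, and a match is a description of the letters only.

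Total estimated counts per liver ranged from 17527848 to 25833134. The targeted gene followed its labels. Lipa had 202 to 323 CPM (reads per library of standard size, scaled by edgeR's TMM factors) in the 6 WT livers and 16.7 to 37.0 CPM in the 12 Lipa-/- livers, and the human transgene had 523 to 2746 CPM in the 6 treated livers and at most 0.906 CPM elsewhere. Among the 12 macrophage markers, 12 were higher in Lipa-/- than in WT livers at both times, and the list summed to 164 to 373 CPM in WT, 4895 to 8297 CPM in Lipa-/- and 944 to 2695 CPM in treated livers at 12-weeks. At 34-weeks the sums were 278 to 518, 3685 to 7173 and 430 to 1013 CPM. Hepatocyte markers summed to 22630 to 112100 CPM in every liver, and 4 of 9 tested fell in Lipa-/- livers at 12-weeks and 7 of 9 at 34-weeks. Over all tested genes 20.2% and 20.5% were called higher in Lipa-/- livers at these times, and 9.06% and 15.7% lower. These are whole livers, in which fewer cells of a type and less RNA per cell cannot be told apart, and the part of such shifts in the receptor results was not tested. Livers of 1 group differed most among treated mice at 12-weeks, with a chi-square per gene of 361, 194 and 227 for the 3 pairs. WT mouse 1 of the 34-weeks group had 264 and 258 against mice 2 and 3, which differed from each other by 43.4, and treated mice 9 and 12 at 34-weeks and Lipa-/- mice 5 and 9 at 12-weeks had 195 and 188. The other pairs lay between 57.7 and 112.

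**Figure D1:**
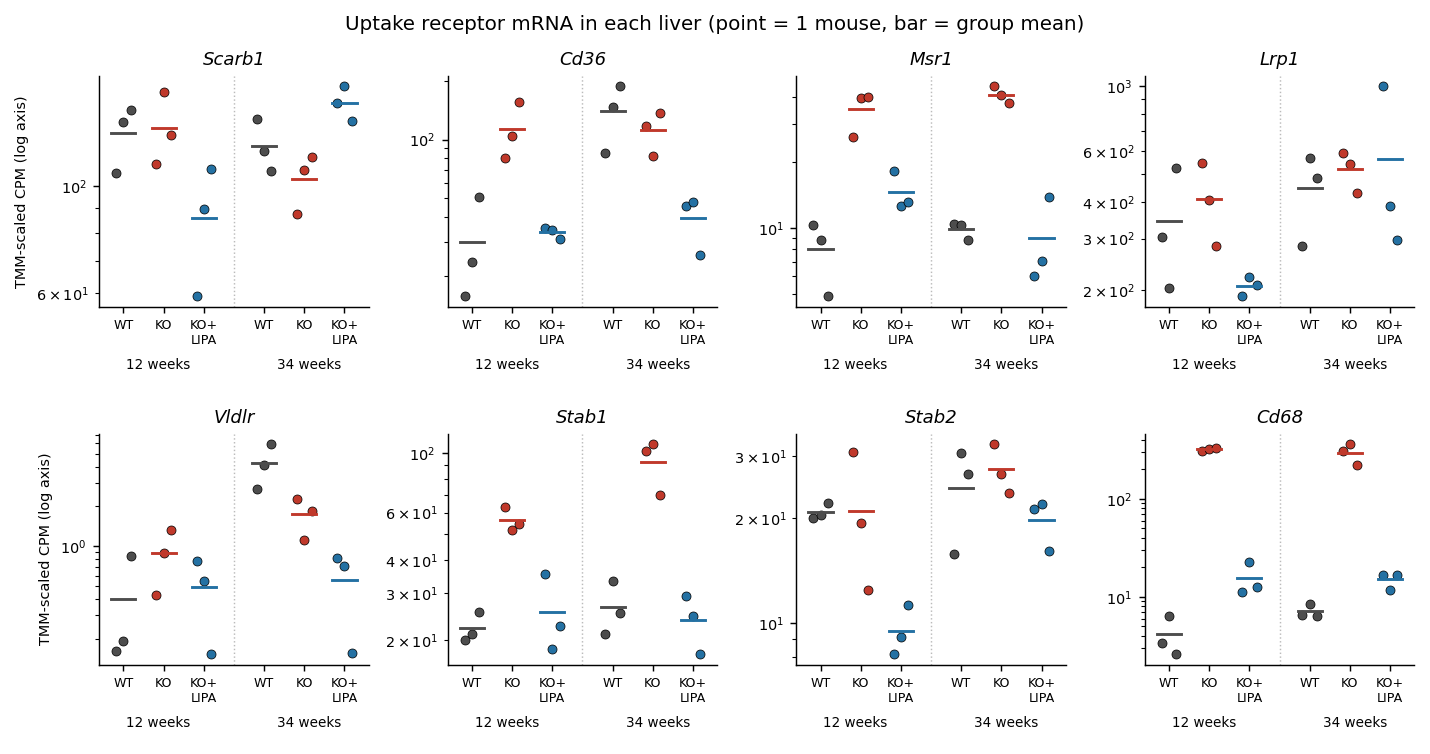
TMM-scaled CPM on a log axis for each of the 8 receptors, with 1 point per mouse and a bar at the mean of each group of 3; KO is Lipa-/- and KO+LIPA is rAAV8-treated Lipa-/-. Cd68 stands at 219 to 361 CPM in all 6 Lipa-/- livers and at no more than 22.9 CPM in any other liver, whereas points of the 3 groups intermix for Lrp1 at 34-weeks.

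Lipa-/- livers held more mRNA of 4 receptors at 12-weeks, Cd68, Msr1, Cd36 and Stab1, and of 3 of them, Cd68, Msr1 and Stab1, at 34-weeks. A gene is called changed where edgeR's quasi-likelihood test gave a Benjamini-Hochberg adjusted p under 0.05 over all tested genes and the log2 fold change exceeded 1 in either direction. By this rule 29.3% of all tested genes were called at 12-weeks and 36.3% at 34-weeks, beside 4 and 3 of the 8 receptors. The median log2 fold change of the 8 was 1.24 at 12-weeks and 0.20 at 34-weeks, beside 0.02 and -0.03 over all tested genes. None of the 8 was called lower in Lipa-/- livers. These values stand relative to the TMM factors: with total counts alone the median of all tested genes was 0.47 higher at 12-weeks and 0.63 higher at 34-weeks, and 87.2% and 81.8% of the calls were higher in Lipa-/- livers, against 69.1% and 56.6% with TMM. The same 4 and 3 receptors passed without TMM factors.

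Treated Lipa-/- livers held less of 5 receptors than untreated ones at 12-weeks, Cd36, Msr1, Stab1, Stab2 and Cd68, and of 4 at 34-weeks, the same genes without Stab2. Over all tested genes 41.5% and 31.5% were called in these comparisons, and 25.3% and 18.6% were called lower. With DESeq2 the receptors called at 12-weeks were Cd36, Msr1, Lrp1 and Cd68, without Stab1 and Stab2. Against WT, treated livers differed in 2 receptors at 12-weeks, where Cd68 was higher and Stab2 lower and 25.5% of all tested genes were called. With DESeq2 the 2 called were Stab1 and Cd68, without Stab2, and limma on TPM called 3, Scarb1, Stab2 and Cd68. At 34-weeks none of the 8 was called by edgeR and 0.22% of all tested genes were. There 3 receptors, Cd36, Vldlr and Cd68, had an unadjusted edgeR p under 0.05, beside 5.76% of all tested genes. DESeq2 called 1, Cd36, and limma on TPM called 0. Both comparisons of a time point share their WT or Lipa-/- livers with another, so the counts are not independent of each other. With total counts alone the all-gene median of treated against untreated livers was lower by 0.87 at 12-weeks and by 0.54 at 34-weeks.

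**Figure D2:**
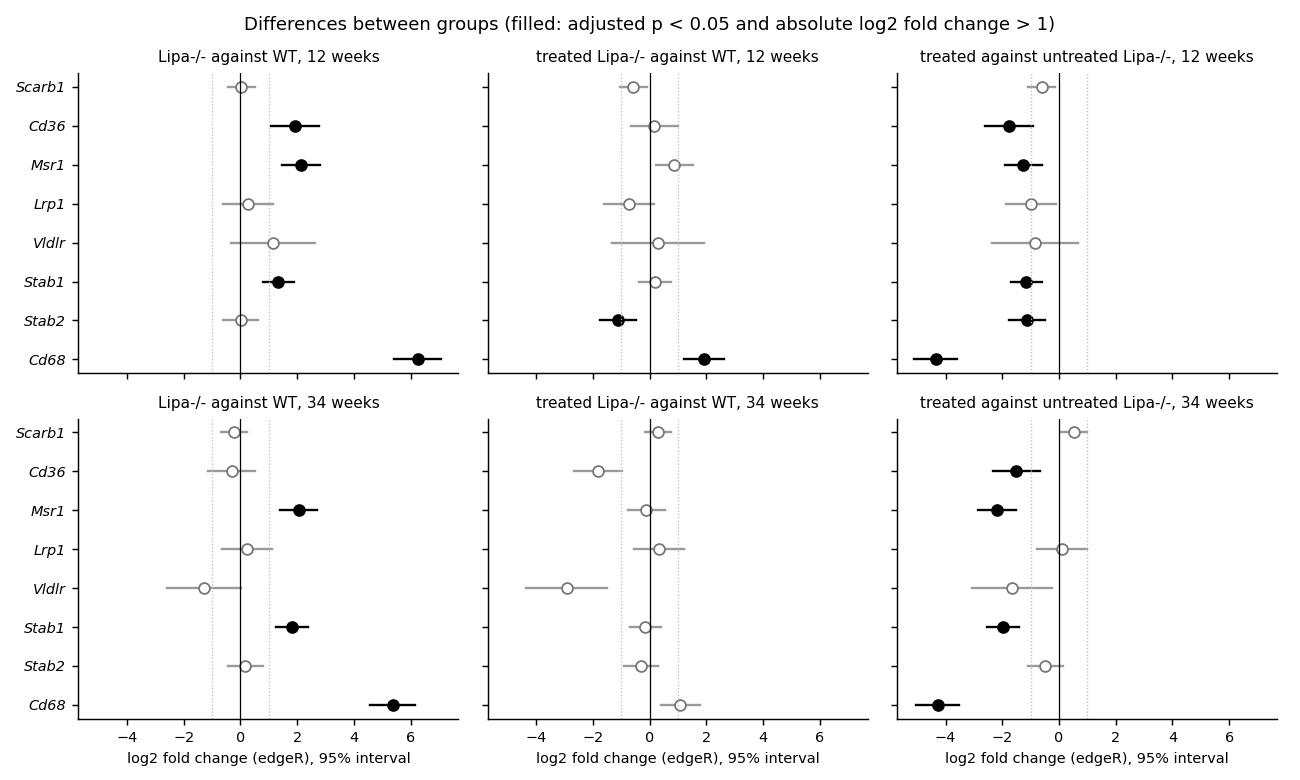
Log2 fold changes from edgeR with 95% intervals (bars) for the 8 receptors in 6 comparisons, at 12-weeks (top) and 34-weeks (bottom); filled points were called, and dotted lines mark a log2 fold change of 1 in each direction. Cd68 was called in 5 of the 6 panels, and the treated livers at 34-weeks had no filled point against WT.

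Cd68, a heavily glycosylated protein of late endosomes and lysosomes in macrophages and a class D scavenger receptor, changed most. At 12-weeks Cd68 stood at 3.43, 6.46 and 2.62 CPM in WT mice 1 to 3, at 305, 325 and 327 CPM in Lipa-/- mice 5, 8 and 9, and at 11.2, 22.9 and 12.6 CPM in treated mice 10 to 12. The 3 groups did not overlap, with treated livers a little above WT and far below Lipa-/-. At 34-weeks Cd68 had 6.49, 8.51 and 6.38 CPM in WT, 304, 361 and 219 CPM in Lipa-/- and 16.8, 11.8 and 16.7 CPM in treated livers, in the same order and again without overlap.
The Cd68 log2 fold change of Lipa-/- against WT was 6.25 (SE 0.39, n = 3 per group, edgeR adjusted p = 1.94e-08) at 12-weeks and 5.37 (SE 0.37, adjusted p = 4.71e-08) at 34-weeks. In treated against untreated livers Cd68 had a log2 fold change of -4.35 (SE 0.36, edgeR adjusted p = 4.83e-07) at 12-weeks and -4.28 (SE 0.35, adjusted p = 3.90e-07) at 34-weeks. Cd68 stayed above WT in treated livers at 12-weeks, by a log2 fold change of 1.9 (SE 0.33, edgeR adjusted p = 0.00238), while the 34-weeks value of 1.08 (SE 0.32) missed the threshold (adjusted p = 0.404) although the livers did not overlap. The profile most like that of Cd68 over the 18 livers was Ctss, the macrophage cysteine protease cathepsin S, with a root mean square difference of 0.30 log2 units among 12598 genes. Tlr13 and Cd300lf followed, with 0.39 and 0.40.

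Msr1, the class A scavenger receptor of macrophages for modified lipoproteins, followed Cd68 in direction but not in size. At 12-weeks Msr1 had 10.3, 8.85 and 4.87 CPM in WT mice 1 to 3, 26.2, 39.2 and 39.7 CPM in Lipa-/- mice 5, 8 and 9, and 18.2, 12.7 and 13.1 CPM in treated mice 10 to 12. All groups were separate, with treated livers between the other two. At 34-weeks Msr1 had 10.4, 10.3 and 8.80 CPM in WT, 44.6, 40.5 and 37.3 CPM in Lipa-/- and 6.02, 7.05 and 13.9 CPM in treated livers, so that treated and WT livers overlapped and all Lipa-/- livers lay above both.
Msr1 rose in Lipa-/- livers by a log2 fold change of 2.13 (SE 0.32, edgeR adjusted p = 5.84e-05) at 12-weeks and 2.05 (SE 0.31, adjusted p = 5.41e-05) at 34-weeks. In treated against untreated livers it fell by 1.26 (SE 0.31, adjusted p = 0.00285, edgeR) and by 2.18 (SE 0.32, adjusted p = 4.26e-05). Against WT, treated livers at 12-weeks had a log2 fold change of 0.86 (SE 0.31, edgeR adjusted p = 0.0393), under the fold threshold, and -0.13 (95% interval -0.78 to 0.52, adjusted p = 0.992) at 34-weeks. After removal of each library's trend with transcript length and GC content, a setting chosen after the data were seen, the 12-weeks value of Msr1 was -0.05 (SE 0.24). Srgn, Jpt1 and Ifngr1 had the profiles most like Msr1, at 0.25, 0.26 and 0.29 log2 units.

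Cd36, which binds long-chain fatty acids and oxidised lipoproteins, differed from the macrophage receptors in that WT livers at 34-weeks were as high as Lipa-/- livers. At 12-weeks Cd36 had 15.8, 23.6 and 50.6 CPM in WT mice 1 to 3, 80.3, 105 and 156 CPM in Lipa-/- mice 5, 8 and 9, and 35.2, 34.6 and 31.1 CPM in treated mice 10 to 12. Lipa-/- livers lay above all others and treated livers fell inside the WT range. At 34-weeks Cd36 had 84.9, 146 and 187 CPM in WT, 117, 82.7 and 137 CPM in Lipa-/- and 45.6, 47.6 and 25.6 CPM in treated livers. Here WT and Lipa-/- livers intermixed, and all treated livers lay below both.
Cd36 rose in Lipa-/- livers at 12-weeks by a log2 fold change of 1.92 (SE 0.40, edgeR adjusted p = 0.00116), and at 34-weeks the value was -0.31 (95% interval -1.13 to 0.50, adjusted p = 0.531). In treated against untreated livers it fell by 1.76 (SE 0.40, adjusted p = 0.0017, edgeR) at 12-weeks and had a log2 fold change of -1.5 (SE 0.40, adjusted p = 0.0058) at 34-weeks. Against WT the treated livers had a log2 fold change of 0.17 (95% interval -0.66 to 0.99, edgeR adjusted p = 0.76) at 12-weeks and -1.82 (SE 0.40, adjusted p = 0.103) at 34-weeks. The latter did not pass with all mice, and passed without WT mouse 1 of that group, at -2.07, and with DESeq2, at -1.8, or without a filter on low counts, at -1.82. Cd36 had no close neighbour: its most alike genes were Lrrc39, Nt5e and Stap1, at 0.52 to 0.58 log2 units.

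Stab1, a clearance receptor of sinusoidal endothelium that some macrophages also make, was the third receptor above WT at both times. At 12-weeks Stab1 had 20.2, 21.1 and 25.6 CPM in WT mice 1 to 3, 62.9, 51.6 and 54.6 CPM in Lipa-/- mice 5, 8 and 9, and 35.5, 18.6 and 22.5 CPM in treated mice 10 to 12. At 34-weeks it had 21.1, 33.4 and 25.3 CPM in WT, 102, 108 and 69.6 CPM in Lipa-/- and 29.3, 24.7 and 17.8 CPM in treated livers. All 6 Lipa-/- livers lay above every other liver, and treated livers overlapped WT at both times.
Stab1 rose in Lipa-/- livers by a log2 fold change of 1.34 (SE 0.26, edgeR adjusted p = 0.000734) at 12-weeks and 1.81 (SE 0.27, adjusted p = 3.77e-05) at 34-weeks. In treated against untreated livers it fell by 1.15 (SE 0.26, adjusted p = 0.00184, edgeR) and by 1.96 (SE 0.27, adjusted p = 2.53e-05). Against WT the treated livers gave 0.19 (95% interval -0.36 to 0.75, edgeR adjusted p = 0.579) and -0.16 (-0.71 to 0.40, adjusted p = 0.984).
The deposited lengths put a limit on the 12-weeks treated livers. The mean length of the transcripts to which Stab1 reads were assigned was 1384 to 2221 bases in WT, 1068 to 1382 in Lipa-/- and 595 to 814 in treated livers at 12-weeks, without overlap of any pair of groups, against 7999 bases of the canonical transcript. With these lengths as offsets, edgeR gave Stab1 a log2 fold change of 1.5 in treated against WT livers (SE 0.32, adjusted p = 0.00454) and of -0.34 against untreated livers (SE 0.31, adjusted p = 0.37). With the length and GC trend removed these were 1.25 (SE 0.31, edgeR adjusted p = 0.00819) and 0.40 (SE 0.30, adjusted p = 0.279). The fall of Stab1 with treatment at 12-weeks was thus not called in either setting, while that at 34-weeks was called in both, at -2.15 and -1.43. Without treated mouse 11 the 12-weeks value was -0.96 and under the fold threshold. With the trend removed the rise in Lipa-/- livers was 0.85 (SE 0.30, edgeR adjusted p = 0.0275) and 1.01 (SE 0.30, adjusted p = 0.0103) with the trend removed, the former under the fold threshold. Elk3, Rbms1 and Mitf had the profiles most like Stab1, at 0.28 to 0.30 log2 units.

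Stab2, the stabilin that takes up hyaluronan in the sinusoid, gave log2 fold changes near 0 between Lipa-/- and WT livers. At 12-weeks Stab2 had 19.9, 20.4 and 22.0 CPM in WT mice 1 to 3, 30.8, 19.4 and 12.4 CPM in Lipa-/- mice 5, 8 and 9, and 8.16, 9.13 and 11.3 CPM in treated mice 10 to 12. WT livers lay close together inside the wide Lipa-/- range, and treated livers lay below all of them. At 34-weeks it had 15.8, 30.7 and 26.6 CPM in WT, 32.5, 26.7 and 23.6 CPM in Lipa-/- and 21.1, 22.0 and 16.1 CPM in treated livers, where WT overlapped both other groups.
The Stab2 log2 fold change of Lipa-/- against WT was 0.01 (95% interval -0.60 to 0.62, edgeR adjusted p = 0.99) at 12-weeks and 0.18 (-0.43 to 0.79, adjusted p = 0.641) at 34-weeks. In treated livers at 12-weeks Stab2 fell by 1.12 against WT (SE 0.30, adjusted p = 0.0107, edgeR) and by 1.13 against untreated livers (SE 0.30, adjusted p = 0.00455). Both calls were lost with the length and GC trend removed, at -0.49 (SE 0.21, edgeR adjusted p = 0.0742) and -0.23 (SE 0.21, adjusted p = 0.364). DESeq2 with the deposited lengths also put both under the fold threshold, at -0.91 (adjusted p = 0.00562) and -0.98 (adjusted p = 0.00138), and edgeR with these lengths did so for the first, at -0.95. Without Lipa-/- mouse 5, the liver of separate study code, the second value was -0.74 and not called. At 34-weeks the values were -0.31 (SE 0.29, adjusted p = 0.966) and -0.48 (SE 0.29, adjusted p = 0.196) in edgeR. Agap3, Zzz3 and Egln1 were nearest in profile, at 0.22 to 0.23 log2 units.

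Scarb1, the HDL receptor of hepatocytes that takes up cholesteryl esters selectively, was among the steadiest receptors over the livers. At 12-weeks Scarb1 had 106, 136 and 144 CPM in WT mice 1 to 3, 111, 156 and 128 CPM in Lipa-/- mice 5, 8 and 9, and 59.2, 89.7 and 109 CPM in treated mice 10 to 12. At 34-weeks it had 138, 118 and 107 CPM in WT, 87.7, 108 and 115 CPM in Lipa-/- and 149, 161 and 136 CPM in treated livers. Treated livers were thus the lowest group at 12-weeks, with overlap with WT, and the highest at 34-weeks, where they overlapped WT and lay above all Lipa-/- livers.
Lipa-/- against WT gave a Scarb1 log2 fold change of 0.03 (95% interval -0.43 to 0.50, edgeR adjusted p = 0.921) at 12-weeks and -0.23 (-0.70 to 0.24, adjusted p = 0.422) at 34-weeks. Treated livers had -0.58 against WT (SE 0.22, adjusted p = 0.0493, edgeR) and -0.62 against untreated livers (SE 0.22, adjusted p = 0.0274) at 12-weeks, both under the fold threshold. With the length and GC trend removed these were -0.36 (adjusted p = 0.144, edgeR) and 0.08 (adjusted p = 0.738). On TPM limma called Scarb1 in both comparisons. At 34-weeks treated livers had 0.30 against WT (SE 0.22, edgeR adjusted p = 0.966) and 0.52 against untreated livers (SE 0.22, adjusted p = 0.0701). Akt1s1, Kars and Mad2l2 had the profiles most like Scarb1, all at 0.19 log2 units.

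Lrp1, the large endocytic receptor for remnant lipoproteins and protease complexes, varied more within groups than between them. At 12-weeks Lrp1 had 305, 204 and 523 CPM in WT mice 1 to 3, 544, 406 and 283 CPM in Lipa-/- mice 5, 8 and 9, and 190, 221 and 208 CPM in treated mice 10 to 12. At 34-weeks it had 284, 568 and 486 CPM in WT, 590, 541 and 429 CPM in Lipa-/- and 998, 387 and 298 CPM in treated livers. Groups overlapped at both times, except that treated livers lay below all Lipa-/- livers at 12-weeks, and treated mouse 9 of the 34-weeks group was far above its group mates.
The Lrp1 log2 fold changes of Lipa-/- against WT were 0.26 (95% interval -0.63 to 1.14, edgeR adjusted p = 0.664) and 0.22 (-0.66 to 1.11, adjusted p = 0.695). Treated against untreated livers gave -0.99 (SE 0.42, adjusted p = 0.0574, edgeR) at 12-weeks and 0.11 (SE 0.42, adjusted p = 0.859) at 34-weeks. Against WT the treated livers gave -0.73 (SE 0.42, adjusted p = 0.176, edgeR) and 0.33 (SE 0.42, adjusted p = 0.974). The size and the sign of the Lrp1 values moved with the setting. On TPM, limma called it higher in Lipa-/- than in WT livers, by 1.24 and 1.14, and lower in treated than in untreated livers at 12-weeks, by a log2 fold change of -2.21. DESeq2 and edgeR with the deposited lengths also called it lower in that last comparison, at -1.10 and -1.14, whereas with the length and GC trend removed the value was 0.64 (SE 0.19, edgeR adjusted p = 0.0109). TPM is divided by the assigned length, which for Lrp1 averaged 2574 bases in WT, 1824 in Lipa-/- and 2038 in treated livers at 12-weeks. At 34-weeks it averaged 2627 bases in WT and 2254 in Lipa-/- livers. The part of these lengths in the TPM results was not tested. The genes most like Lrp1 in profile were Ints1, Macf1 and Spata13, at 0.19 to 0.21 log2 units.

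Vldlr, the receptor for very-low-density lipoprotein, is made mainly outside the liver and was barely detected, with 2 to 152 reads per liver. At 12-weeks Vldlr had 0.161, 0.191 and 0.838 CPM in WT mice 1 to 3, 0.426, 0.893 and 1.33 CPM in Lipa-/- mice 5, 8 and 9, and 0.777, 0.543 and 0.153 CPM in treated mice 10 to 12, with all groups overlapping. At 34-weeks it had 2.71, 4.10 and 5.92 CPM in WT, 2.27, 1.12 and 1.84 CPM in Lipa-/- and 0.813, 0.710 and 0.156 CPM in treated livers, so the groups were separate, WT highest and treated lowest. None of the Vldlr differences between groups of a time point was called in the reported fit. The Vldlr log2 fold change at 34-weeks was -1.28 (SE 0.61, edgeR adjusted p = 0.096) for Lipa-/- against WT, -2.93 (SE 0.68, adjusted p = 0.139) for treated against WT and -1.65 (SE 0.66, adjusted p = 0.0555) for treated against untreated livers. The second was called without a filter on low counts, at -2.94 (edgeR adjusted p = 0.0475). With the length and GC trend removed the first and the last were called, at -1.48 (edgeR adjusted p = 0.0362) and -1.57 (adjusted p = 0.0424). The first was also called with only the 2 groups fitted, at -1.23, and the last with upper-quartile factors or total counts, at -1.79 and -2.22. At 12-weeks the values were 1.15 (SE 0.70, adjusted p = 0.21), 0.29 (SE 0.77, adjusted p = 0.786) and -0.86 (SE 0.72, adjusted p = 0.319, edgeR). The 95% interval of Lipa-/- against WT at 12-weeks ran from -0.34 to 2.64, and without WT mouse 3, the highest of its group, that comparison was called, at 2.28. The gene most like Vldlr among the 12598 compared was Cd36, at 0.68 log2 units.

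Between the time points WT livers differed in 2 of the 8 receptors, Cd36 and Vldlr, where 0.323% of all tested genes were called. Cd36 was 2.22 log2 units higher at 34-weeks than at 12-weeks in WT (SE 0.41, edgeR adjusted p = 0.0249) and Vldlr was 3.41 higher (SE 0.71, adjusted p = 0.0478), and for both genes every 34-weeks WT liver lay above every 12-weeks WT liver. Both calls were lost when only the 2 groups were fitted, at an adjusted p of 0.237 and 0.175 with edgeR, and when WT mouse 1 or 2 of the 12-weeks group or mouse 2 or 3 of the 34-weeks group was left out. In Lipa-/- livers 0 of the 8 were called between times, beside 0.495% of all tested genes. There 1 receptor, Stab1, had an unadjusted p under 0.05 in edgeR, beside 15.6% of all tested genes, and DESeq2 and limma on TPM called 0. The Cd36 value was -0.02 (95% interval -0.84 to 0.80) in Lipa-/- livers.
Whether the difference of Lipa-/- from WT changed between times was tested directly. The change for Cd36 was -2.24 (SE 0.55, edgeR adjusted p = 0.152), 0 of the 8 were called, and 0.0619% of all tested genes were. In that test 2 receptors, Cd36 and Vldlr, had an unadjusted edgeR p under 0.05, beside 9.48% of all tested genes. DESeq2 called 1, Cd36, and limma on TPM called 0. For treated against WT livers the same test called 2 receptors lower at 34-weeks relative to 12-weeks, Cd36 at -1.98 (SE 0.56, edgeR adjusted p = 0.0286) and Vldlr at -3.22 (SE 1.02, adjusted p = 0.0393), beside 18.4% of all tested genes. On TPM limma called neither, and DESeq2 called Cd36 but not Vldlr. DESeq2 also called Stab1 here, and limma on TPM called Scarb1. Since study code and time coincide, and Lipa-/- livers labelled 34-weeks were mostly collected earlier, these values describe the 2 sets of livers.

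In treated livers 2 receptors, Lrp1 and Stab2, were called higher at 34-weeks than at 12-weeks, where 32% of all tested genes were called. Lrp1 had a log2 fold change of 1.44 (SE 0.43, edgeR adjusted p = 0.0126) and Stab2 of 1.05 (SE 0.30, adjusted p = 0.00963), and Scarb1, at 0.79 (SE 0.22, adjusted p = 0.00949), was under the fold threshold. The groups of livers did not overlap for any of the 3. Over all tested genes 53.1% had an unadjusted edgeR p under 0.05 here, and the share without overlap was not counted. DESeq2 called neither Lrp1, at 0.80, nor Stab2, at 0.94, both under the fold threshold. Limma on TPM called all 3, Scarb1, Lrp1 and Stab2. Without treated mouse 9 of the 34-weeks group the Lrp1 value was 0.73 and not called. The same direction was seen across long transcripts in general: the 3200 genes with canonical transcripts over 5000 bases had a median log2 fold change of 0.56 in this comparison, against -0.70 for the 2817 genes of at most 2000 bases. With the length and GC trend removed Lrp1 was at -0.50 (SE 0.19, adjusted p = 0.0489, edgeR), Stab2 at 0.06 (SE 0.21, adjusted p = 0.846) and Scarb1 at 0.39 (SE 0.19, adjusted p = 0.113). In treated against WT livers at 12-weeks the same long and short genes had medians of -0.35 and 0.62.

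**Figure D3:**
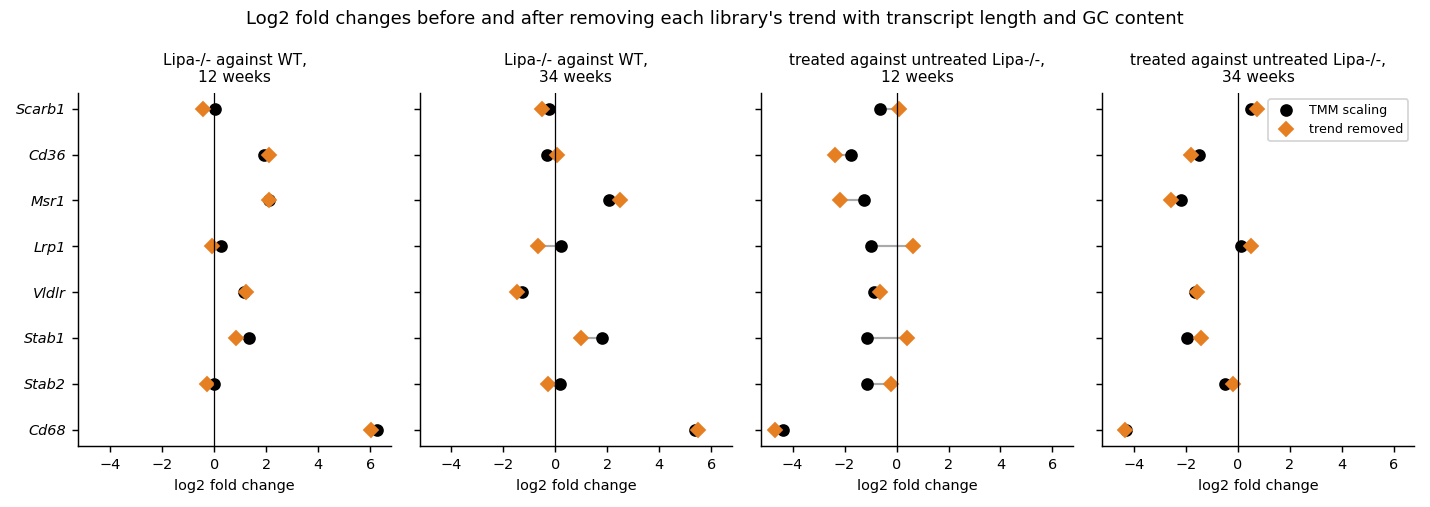
Log2 fold changes of the 8 receptors with TMM scaling (circles) and after each library's trend with transcript length and GC content was removed (diamonds), in 4 comparisons. Cd68, Msr1 and Cd36 kept large differences from treated to untreated livers, while Lrp1 moved from -0.99 to 0.64 and Stab1 from -1.15 to 0.40 at 12-weeks.

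Levels of different genes can be set side by side only per length, which the deposited TPM values, scaled to transcript length, allow. These rest on the assigned lengths, which for Stab1 differed between the 12-weeks groups as given above, so its place in the order carries that difference. For Lrp1 the mean assigned length at 12-weeks was 2574 bases in WT and 1824 in Lipa-/- livers, against 14906 bases of the canonical transcript. TPM is divided by this length, so the high place of Lrp1 rests on it as well. In WT livers at 12-weeks the order of mean TPM was Lrp1 with 113 ± 44.1 (SD, n = 3), Scarb1 with 50.6 ± 11.6, Cd36 with 10.8 ± 8.02, Stab1 with 10.7 ± 2.78, Cd68 with 4.01 ± 2.25, Stab2 with 3.70 ± 0.777, Msr1 with 2.49 ± 0.488 and Vldlr with 0.0826 ± 0.0893. Cd36 and Stab1 did not differ beyond their spread, nor did Cd68, Stab2 and Msr1. In Lipa-/- livers at 12-weeks Cd68 led, with 482 ± 1.93 TPM, ahead of Lrp1 with 258 ± 48.4, and Scarb1 (71.0 ± 12.4), Cd36 (54.0 ± 22.3) and Stab1 (53.2 ± 11.7) formed a middle group within each other's spread. Msr1 followed with 15.2 ± 4.88 TPM, above Stab2 with 5.32 ± 1.56 and Vldlr with 0.459 ± 0.533.
At 34-weeks Cd68 again led in Lipa-/- livers, with 593 ± 170 TPM, and Stab1 reached 92.8 ± 29.0 TPM, within the spread of Scarb1 (73.7 ± 3.14) and Cd36 (72.4 ± 22.6). In treated livers at 34-weeks Lrp1 (199 ± 92.0 TPM) and Scarb1 (73.7 ± 8.06) led, and Cd68 (20.0 ± 4.47), Cd36 (17.3 ± 5.63) and Stab1 (14.1 ± 1.01) lay near each other. Group means on TPM stood in the same order as on CPM in 102 of 120 pairs of groups over the 8 genes. The highest group differed between the units for Cd36, Lrp1 and Cd68.

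**Figure D4:**
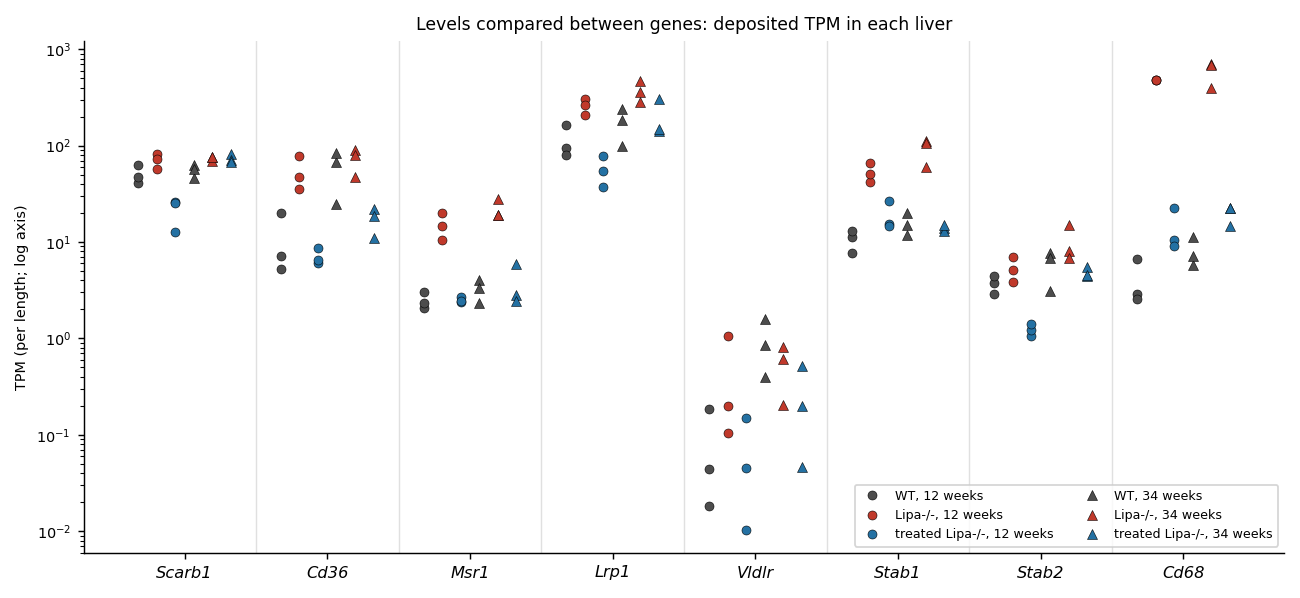
Deposited TPM on a log axis for the 8 receptors, with 1 point per liver; circles are 12-weeks and triangles 34-weeks, and colours give the group. In Lipa-/- livers Cd68 lies above all other receptors at 12-weeks (482 TPM on average), while in WT livers Lrp1 and Scarb1 are the highest and Vldlr stays near or under 1 TPM.

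Related receptors were described from lists. Of 17 tested scavenger receptors beyond the 8, 10 rose and 2 fell in Lipa-/- livers at 12-weeks, and again 10 rose and 2 fell at 34-weeks, with medians of 2.16 and 1.91, where 29.3% and 36.3% of all tested genes were called. Clec7a, the beta-glucan receptor dectin-1 of myeloid cells, averaged 2.69 CPM in WT and 138 CPM in Lipa-/- livers at 12-weeks, a log2 fold change of 5.67 (SE 0.65, edgeR adjusted p = 4.12e-06), and Mrc2, a collagen-binding endocytic receptor of mesenchymal cells, rose by 4.82 (SE 0.48, adjusted p = 1.11e-06). Cd163, the haptoglobin-haemoglobin receptor of resident macrophages, went the other way, from 5.21 to 0.15 CPM, and fell by 5.05 (SE 0.95, adjusted p = 0.000463, edgeR). Marco, a class A receptor, was called at 12-weeks (4.31, SE 1.37, edgeR adjusted p = 0.0191) and not at 34-weeks (1.65, SE 1.19, adjusted p = 0.27), and its Lipa-/- livers spread from 1.29 to 64.4 CPM at 12-weeks.
In treated against untreated livers 8 of the 17 fell and 2 rose at 12-weeks, and 9 fell and 2 rose at 34-weeks, where 25.3% and 18.6% of all tested genes were called lower. Clec7a was not among those that fell at 12-weeks, where treated livers averaged 77.2 CPM, at a log2 fold change of -0.84 (SE 0.52, edgeR adjusted p = 0.184) from untreated and 4.83 (SE 0.62, adjusted p = 0.000653) from WT livers.

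Of 14 tested further members of the LDL receptor family and its relatives, 3 rose and 1 fell in Lipa-/- livers at 12-weeks and 4 rose and 2 fell at 34-weeks, shares near the 29.3% and 36.3% of all tested genes called. Lrp12 rose by 2.76 at both times (SE 0.30, edgeR adjusted p = 2.42e-06 at 12-weeks), and Sorl1, a sorting receptor, by 3.28 (SE 0.41, adjusted p = 9.72e-06) and 2.65 (SE 0.39). Sort1, the sorting receptor sortilin, was at 0.96 (SE 0.22, adjusted p = 0.00274, edgeR), under the fold threshold, and rose by 1.9 (SE 0.23, adjusted p = 5.14e-06) at 34-weeks. Lrp2, the receptor megalin, fell from a mean of 2.31 CPM in WT to 0 to 0.142 CPM in Lipa-/- livers at 12-weeks, where single libraries held few or no reads, a log2 fold change of -5.08 (SE 0.82, adjusted p = 9.62e-05, edgeR), and averaged 2.27 CPM in treated livers.

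Of 16 tested chaperones, adaptors and regulators of uptake receptors, 6 rose and 0 fell in Lipa-/- livers at 12-weeks and 5 rose and 2 fell at 34-weeks, beside the 29.3% and 36.3% of all tested genes called. Spi1, which encodes the myeloid factor PU.1, averaged 3.81 CPM in WT, 101 CPM in Lipa-/- and 10.3 CPM in treated livers at 12-weeks, with a log2 fold change of 4.73 (SE 0.51, edgeR adjusted p = 2.15e-06) for Lipa-/- against WT. Dab2, a clathrin adaptor of the LDL receptor family, rose by 1.35 (SE 0.25, adjusted p = 0.000452, edgeR) and 2.30 (SE 0.26). Mitf and Tfeb, related factors that drive lysosomal genes, rose by 1.26 (SE 0.20) and 1.51 (SE 0.33) at 12-weeks and by 1.57 (SE 0.20) and 1.08 (SE 0.32) at 34-weeks.

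Markers of the cell types that carry these receptors did not all move with them. Over all tested genes 20.2% were called higher and 9.06% lower in Lipa-/- than in WT livers at 12-weeks. At 34-weeks the shares were 20.5% and 15.7%. Of 6 Kupffer cell markers, 2 rose and 1 fell in Lipa-/- livers at 12-weeks, and 0 rose and 3 fell at 34-weeks. The 2 that rose at 12-weeks were Marco and Cd5l, the latter by 1.70 (SE 0.54, adjusted p = 0.0188, edgeR). Timd4, which like Marco also stands in the scavenger receptor list, fell at both times, from 3.45 to 0.271 CPM at 12-weeks. Clec4f, a defining Kupffer marker, fell by 2.73 (SE 1.07, adjusted p = 0.0445, edgeR) at 34-weeks. At 12-weeks Clec4f was not called, at -1.51 (SE 1.02, adjusted p = 0.263, edgeR). Folr2 also fell at 34-weeks, by 1.89 (SE 0.48), and Vsig4 was called at neither time. Of 12 sinusoidal endothelial markers, 1 rose and 6 fell at 12-weeks and 2 rose and 5 fell at 34-weeks, with 5 not called at each time. The list summed to 254 to 303 CPM in WT and 170 to 182 CPM in Lipa-/- livers at 12-weeks. At 34-weeks the sums lay closer, at 273 to 328 CPM in WT, 230 to 272 CPM in Lipa-/- and 194 to 274 CPM in treated livers. Stab1 thus rose where Kdr, an endothelial growth factor receptor, fell by 2.09 (SE 0.24, adjusted p = 4.57e-06, edgeR) at 12-weeks, and Lyve1, a hyaluronan receptor of the same list, rose by 1.19 (SE 0.43, adjusted p = 0.0348).
Of the other lists, 5 of 8 stellate cell, 7 of 7 neutrophil, 3 of 5 cholangiocyte, 3 of 5 T cell and 2 of 5 B cell markers were higher in Lipa-/- livers at 12-weeks, and 1 stellate cell marker was lower. At 34-weeks 5, 6, 5, 3 and 1 were higher, and 2 stellate and 1 B cell marker were lower. These counts stand beside 20.2% and 20.5% of all tested genes called higher at the 2 times, and 9.06% and 15.7% called lower. Ly6g and Mpo, both neutrophil markers, were listed at 0 in all WT livers at 12-weeks. The part of these cell types in the receptor levels was not tested.

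**Figure D5:**
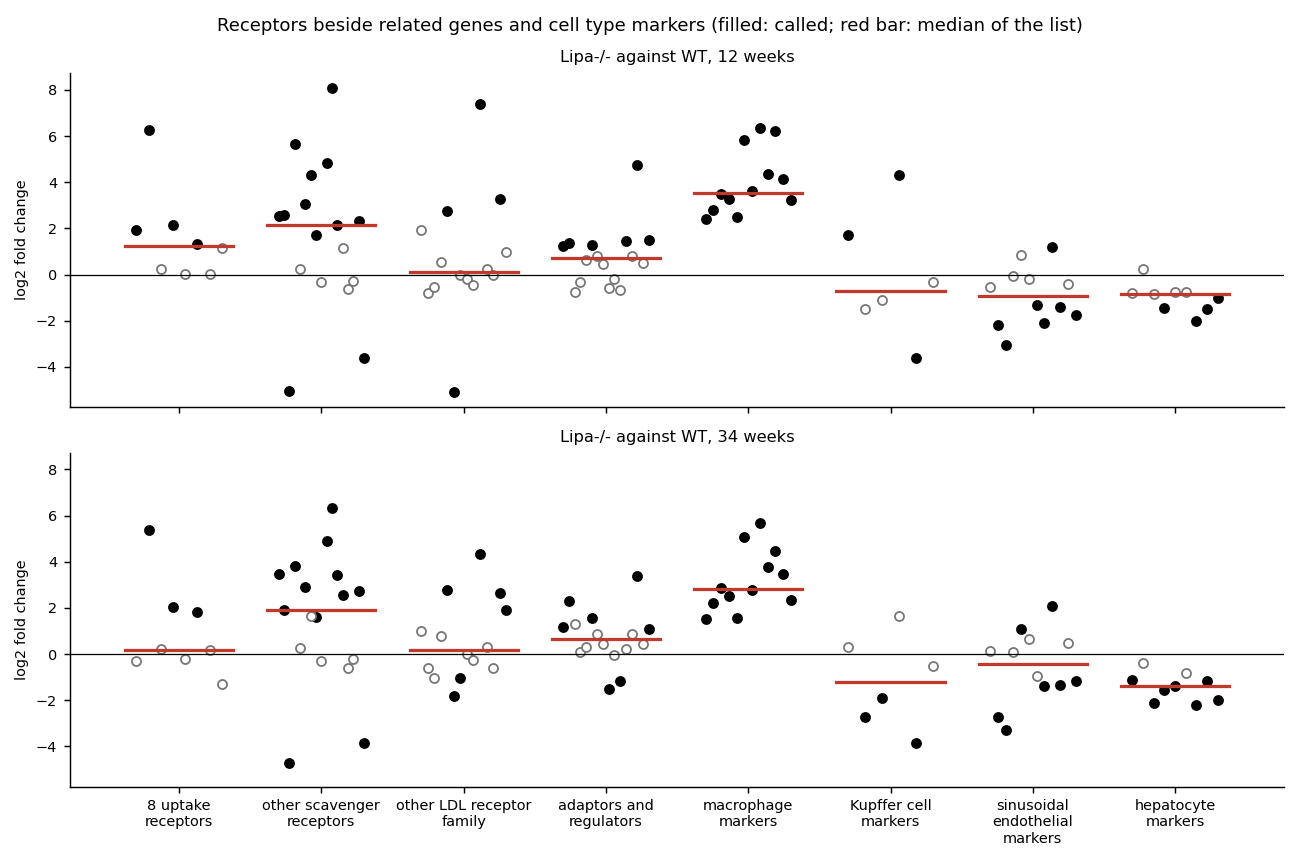
Log2 fold changes of Lipa-/- against WT livers at 12-weeks (top) and 34-weeks (bottom) for the 8 receptors, the related gene lists and the marker lists, with 1 point per gene; filled points were called and red bars are medians. All 12 macrophage markers lie above 0 at both times, the 8 receptors have medians of 1.24 and 0.20, and hepatocyte markers have negative medians.

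Restricting the 12-weeks comparison to livers of 1 study code, by leaving out Lipa-/- mouse 5, kept the same 4 receptors called, with log2 fold changes of 6.28 for Cd68, 2.30 for Msr1, 2.12 for Cd36 and 1.25 for Stab1. The value of Stab2 changed from 0.01 to -0.39 without that liver and was not called in either fit.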

How the data were processed

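Liver poly(A) RNA of 18 mice was sequenced in pairs of reads. Per the study's methods, the authors quantified reads with Salmon against GRCm39 transcripts of Ensembl (library type detected automatically) and summarised them per gene with tximport. The deposited tables hold the estimated count of each gene, with 19.4% of values not whole, the TPM the authors derived from it, and the mean transcript length. The processing notes name R 4.3.0 and DESeq2 1.40.1. Another table holds the authors' own DESeq2 fold changes and p-values and was not used.

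Estimated counts were rounded, genes with more than 100 summed reads were kept (14533 of 35441, untested genes holding at most 0.0975% of reads), and all 6 groups entered 1 fit with edgeR 4.0.16 in R 4.3.3: TMM factors (0.587 to 1.69), glmQLFit and glmQLFTest, with 11 contrasts. A call needed an adjusted p under 0.05 and an absolute log2 fold change over 1, the thresholds of the study. Every adjusted p comes from edgeR over all tested genes unless DESeq2 1.42.0 or limma 3.58.1, on log2(TPM + 1), is named. TPM test differences understate changes of low genes. A floor of 3 reads was 0.0946 to 0.291 CPM per library, and counting error only is covered by it. An exact permutation of 3 against 3 mice cannot go below 0.10, so no such test is given.

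Alternatives were DESeq2 and edgeR with the deposited lengths as offsets, upper-quartile, RLE or no factors, other filters and thresholds, only the groups compared, TPM, the mouse number as a block, each mouse left out, and, added after the data were seen, offsets that removed each library's trend with canonical transcript length and GC content (available for 98.4% of tested genes). The fit was tested on simulated data with few changed genes and no trend with length, which cannot speak for the scaling used here.

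The 8 receptors and all lists were chosen with earlier results of these data known. Named genes were the 8, up to 4 genes per related list with the largest changes among those called in Lipa-/- against WT and averaging at least 1 CPM, and the 3 genes nearest to each receptor by the root mean square difference of centred log2 CPM (prior count 2). Markers were named as defining ones, the Kupffer cell markers were all named, and Ly6g and Mpo were named because they were listed at 0. No pair of livers was alike within sampling noise (chi-square per gene at least 43.4).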

Additional observations from a re-analysis of the deposited data

Results flagged for a closer look

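By the direct edgeR test, the difference of treated Lipa-/- from WT livers changed between 12-weeks and 34-weeks for 2 of the 8 receptors. The same test called 18.4% of all tested genes, so such calls were not particular to the receptors. For Cd36 the change was -1.98 log2 units (SE 0.56, adjusted p = 0.0286, 3 mice in each of 4 groups): treated livers lay inside the WT range at 12-weeks and all 3 lay below all 3 WT livers at 34-weeks. For Vldlr it was -3.22 (SE 1.02, adjusted p = 0.0393), on 2 to 152 reads per liver, with overlap at 12-weeks and none at 34-weeks. Both were lost when only these 4 groups were fitted, with total counts alone, and on TPM, where limma gave -1.23 for Cd36 (adjusted p = 0.204) and -0.59 for Vldlr (adjusted p = 0.223). DESeq2 called Cd36, at -1.89 (adjusted p = 0.0106), and not Vldlr, at -2.42 (adjusted p = 0.186), and removal of the length and GC trend lost Cd36, at -1.49 (edgeR adjusted p = 0.0952). The Cd36 call was lost without 34-weeks WT mouse 1 or treated mouse 9, or without 12-weeks WT mouse 1 or 3 or treated mouse 10, where the value ranged from -2.59 to -1.68. The Vldlr call was kept only without 34-weeks WT mouse 2 or 12-weeks treated mouse 12, and its value ranged from -4.36 to -2.69 over the 12 mice left out in turn.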

How the results depend on the processing

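Under every planned scaling, filter, tool and left-out mouse, Cd68 and Msr1 were called higher in Lipa-/- than in WT livers at both times and lower with treatment, and so was Stab1 in Lipa-/- against WT livers. Removal of the length and GC trend took Stab1 under the fold threshold at 12-weeks (0.85). For the other results the cause of a change was not tested.

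The number of receptors called in treated against WT livers at 12-weeks was 4 by adjusted p alone and 1 at an adjusted p under 0.01. At 34-weeks it was 1 with DESeq2 and 2 without a filter, and 0 to 1 with a mouse left out (1 without WT mouse 1). Treated against untreated livers at 12-weeks had 3 with the trend removed. Between times in WT livers it was 0 at an adjusted p under 0.01 and with only the groups compared, 1 with DESeq2, edgeR length offsets, total counts, RLE factors or TPM, and 0 to 2 with a mouse left out. Between times in treated livers it was 1 at an adjusted p under 0.01, with DESeq2, length offsets, RLE factors or the trend removed (with DESeq2, length offsets or the trend removed Lrp1 and Stab2 were both lost and the 1 call was another receptor, Stab1 with DESeq2; with RLE factors it was Lrp1), and 0 to 3 with a mouse left out (0 without 34-weeks mouse 9, 1 without 34-weeks mouse 11 or 12-weeks mouse 10). The change of Lipa-/- against WT between times had 1 with DESeq2. That of treated against WT had 0 at an adjusted p under 0.01 and with only the groups compared, 1 with total counts or TPM, and 0 to 3 with a mouse left out. Cd36 and Vldlr were both lost with total counts and on TPM, where the call was Scarb1, and Vldlr was lost with DESeq2 and with edgeR length offsets.

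Mouse numbers recur between time points and name different animals. Deviations of same-numbered livers correlated at 0.08, -0.24 and 0.46 in WT, 0.21 in Lipa-/- and -0.08 and -0.25 in treated mice, so the numbers did not pair them. With the replicate block 0 receptors were called between times in WT, in treated livers and in the change of treated against WT; Cd36 in WT was 2.31 (edgeR adjusted p = 0.0571) and Vldlr 3.60 (adjusted p = 0.0889).

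Signs turned for values that had not been called, except for Stab1 and Lrp1 as stated. With the length and GC trend removed, Lipa-/- against WT at 12-weeks gave Scarb1 -0.44, Lrp1 -0.10 and Stab2 -0.26, and at 34-weeks Cd36 0.048, Lrp1 -0.65 and Stab2 -0.27. Treated against WT livers gave Cd36 -0.28, Msr1 -0.049 and Lrp1 0.54 at 12-weeks and Lrp1 -0.14 at 34-weeks. Treated against untreated livers at 12-weeks gave Scarb1 0.082, Lrp1 0.64 and Stab1 0.40, the last called with TMM, and Lrp1, also called with TMM, was -0.50 between times in treated livers. With total counts, Lipa-/- against WT at 34-weeks gave Scarb1 0.41 and Cd36 0.28, treated against WT at 12-weeks gave Cd36 -0.26, Vldlr -0.13 and Stab1 -0.25, and treated against untreated at 34-weeks gave Scarb1 -0.011 and Lrp1 -0.43. On TPM the same comparisons gave Scarb1 0.42 and Cd36 0.42, then Cd36 -0.36 and Vldlr -0.018, then Scarb1 -0.0045 and Lrp1 -0.96, and Msr1 in treated against WT livers at 34-weeks was 0.10. That Msr1 value was 0.10 with DESeq2 and 0.11 with edgeR length offsets, and Lrp1 in treated against untreated livers at 34-weeks was -0.40 and -0.36 with these and -0.026 with upper-quartile factors.

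With a mouse left out, values of Lipa-/- against WT at 12-weeks ranged from -0.11 to 0.14 for Scarb1, -0.010 to 0.69 for Lrp1 and -0.39 to 0.27 for Stab2, and at 34-weeks from -0.019 to 0.43 for Lrp1 and -0.056 to 0.38 for Stab2. Treated against WT ranged from -0.14 to 0.77 for Cd36, -0.17 to 1.43 for Vldlr and -0.19 to 0.38 for Stab1 at 12-weeks, and from -0.59 to 0.10 for Msr1, -0.38 to 0.64 for Lrp1 and -0.33 to 0.042 for Stab1 at 34-weeks. Lrp1 in treated against untreated livers at 34-weeks ranged from -0.60 to 0.39. Where 1 mouse of a group of 3 is left out, the spread is shared with the other groups of the fit. Vldlr rests on 2 to 152 reads per liver.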
